A study of Mus musculus with 4 samples.

Results

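The genes described here are 6 transport genes of the pancreatic duct cell: Cftr, Car2, Slc4a4, Slc4a2, Slc26a6 and Slc12a2. They were chosen by name and not by a rule on measured values, though with earlier results of these data known. They are 6 of the 54532 gene IDs in the data. All 6 had reads at every stage, and 5 reached 1 FPKM at some stage, the level at which 14841 genes counted as measured. Cftr did not reach it. FPKM is a gene's fragments per kilobase of exon, scaled for the size of the library.

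RNA sequencing was run on fetal pancreas of WT C57BL/6 mice at 4 stages, E11.5 and E13.5 and then E15.5 and E18.5 (E, embryonic day). The series calls the material pancreatic epithelium, and all stages share the WT genotype and the strain. The labels give 1 sample per stage, with total RNA extracted from collected cells, and do not say how many animals it came from. Each sample holds mean FPKM values, which were split into whole reads of 2 libraries per stage, so that the values below carry an SD with n = 2. That split was inferred from the values and no label states it. Whether the libraries of a stage came from separate litters or from 1 RNA is not stated, and the p-values measure only the spread between them.

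Pancreatic duct cells secrete a fluid rich in bicarbonate that carries the digestive enzymes to the gut. Bicarbonate enters the cell with sodium or is made from CO2 and water by carbonic anhydrase, and it leaves across the luminal membrane through the Cftr channel and through chloride bicarbonate exchangers. Mutations of CFTR cause cystic fibrosis, in which the human pancreatic ducts become blocked.

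RefSeq promoter windows (GRCm38.p6), from 250 bases before a start to 50 after it, were read for 4 of the 6 genes, 6 windows in all. No window was read for Car2 or for Slc12a2, which was also highest at E18.5. The motif and GC counts below leave them out, and nothing is said about their promoters. The windows of 3 genes are shown: Cftr and Slc4a4, the luminal exit and the basolateral entry for bicarbonate, which were both highest at E18.5, and Slc26a6, which was not. Capitals mark the GC box GGGCGG on either strand, the letters that Sp1 family factors are known to bind. The Cftr window lies at chr6:18170437-18170736, the Slc4a4 windows at chr5:88887010-88887309 and chr5:89027716-89028015, and the Slc26a6 window at chr9:108853793-108854092, all on the + strand.
Cftr: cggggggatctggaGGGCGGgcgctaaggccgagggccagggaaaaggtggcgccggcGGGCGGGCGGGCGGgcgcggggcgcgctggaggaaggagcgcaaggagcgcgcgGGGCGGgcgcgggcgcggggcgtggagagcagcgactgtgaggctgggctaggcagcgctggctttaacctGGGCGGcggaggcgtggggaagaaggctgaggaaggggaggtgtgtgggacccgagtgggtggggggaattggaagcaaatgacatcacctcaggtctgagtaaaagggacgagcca
Slc4a4, start 1: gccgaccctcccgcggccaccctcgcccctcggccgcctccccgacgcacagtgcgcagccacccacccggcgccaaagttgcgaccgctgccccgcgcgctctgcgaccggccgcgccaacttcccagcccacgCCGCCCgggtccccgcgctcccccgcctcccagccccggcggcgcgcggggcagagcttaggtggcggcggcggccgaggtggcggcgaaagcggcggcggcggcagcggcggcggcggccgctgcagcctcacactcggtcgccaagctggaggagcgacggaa
Slc4a4, start 2: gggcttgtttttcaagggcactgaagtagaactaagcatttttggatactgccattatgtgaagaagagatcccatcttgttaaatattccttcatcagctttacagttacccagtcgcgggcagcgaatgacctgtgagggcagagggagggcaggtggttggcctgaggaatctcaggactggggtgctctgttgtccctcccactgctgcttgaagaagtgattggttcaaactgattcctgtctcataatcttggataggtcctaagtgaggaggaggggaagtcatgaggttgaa
Slc26a6: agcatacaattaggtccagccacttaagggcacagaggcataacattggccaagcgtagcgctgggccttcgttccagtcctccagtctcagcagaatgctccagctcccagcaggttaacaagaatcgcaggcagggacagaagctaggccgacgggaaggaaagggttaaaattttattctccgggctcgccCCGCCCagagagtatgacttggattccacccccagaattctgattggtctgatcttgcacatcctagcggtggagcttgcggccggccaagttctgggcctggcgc

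The Cftr window held 6 GC boxes, 3 of which overlap in 1 run. One GC box was found in the window of the first Slc4a4 start and 1 in that of Slc26a6, against 0 in the second Slc4a4 window and in both Slc4a2 windows. Of the 32851 windows read over all genes, 35.7% held at least 1. The GC content was 71.3% for Cftr, 80% for the first and 48.3% for the second Slc4a4 start, and 56% for Slc26a6. It was 72% and 61.3% for the first and second Slc4a2 windows, against a median of 52.7% over all windows. Searches on both strands for GTTAAT (the core of HNF1 sites), TGTTTAC (FOXA), ACAATGG (SOX) and TGACGTCA (the cAMP response element) found no match in the 6 windows. Those letters occur in 7.10%, 3.65%, 3.66% and 1.79% of all windows. The FPKM values are per gene, so reads from the 2 Slc4a4 starts cannot be told apart.

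The material was checked against marker lists of cell types first. Here and below, 4 values in a row run by stage from the earliest to the latest. The E11.5 sample stood apart: Oc90, an otolith protein of the inner ear, was at 1251 FPKM there, listed at 0 at E13.5 and E18.5, and at 0.0437 FPKM at E15.5. Summed over its list of 10 genes, otic epithelium stood at 1367 FPKM at E11.5, then at 1.09, 0.210 and 1.77 FPKM. Erythroid genes summed to 9705, 234, 193 and 355 FPKM, and genes of neurons, neural crest and glia to 1443, 26.5, 20.5 and 52.1 FPKM. All 12 trunk and duct markers were measured, and they summed to 233, 4850, 2197 and 17796 FPKM, of which the secreted protein Spp1 made up 52.0, 4415, 1741 and 16965 FPKM. Acinar genes summed to 7.29, 5946, 105690 and 49813 FPKM, and endocrine genes to 591, 3671, 2465 and 23526 FPKM. Liver genes summed to 672, 380, 572 and 510 FPKM, of which Ttr made up 44.4, 321, 533 and 491 FPKM. Endothelial genes summed to 6.50, 14.7, 19.7 and 10.3 FPKM, of which Egfl7 made up 4.30, 13.7, 18.6 and 9.29 FPKM. E18.5 is therefore set against E13.5 as well, a comparison of levels that holds no E11.5 library. The scaling factors and the spread used in the tests below still draw on all 4 stages, E11.5 included. In these bulk samples, fewer cells of a type and less RNA per cell cannot be told apart.

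**Figure D1:**
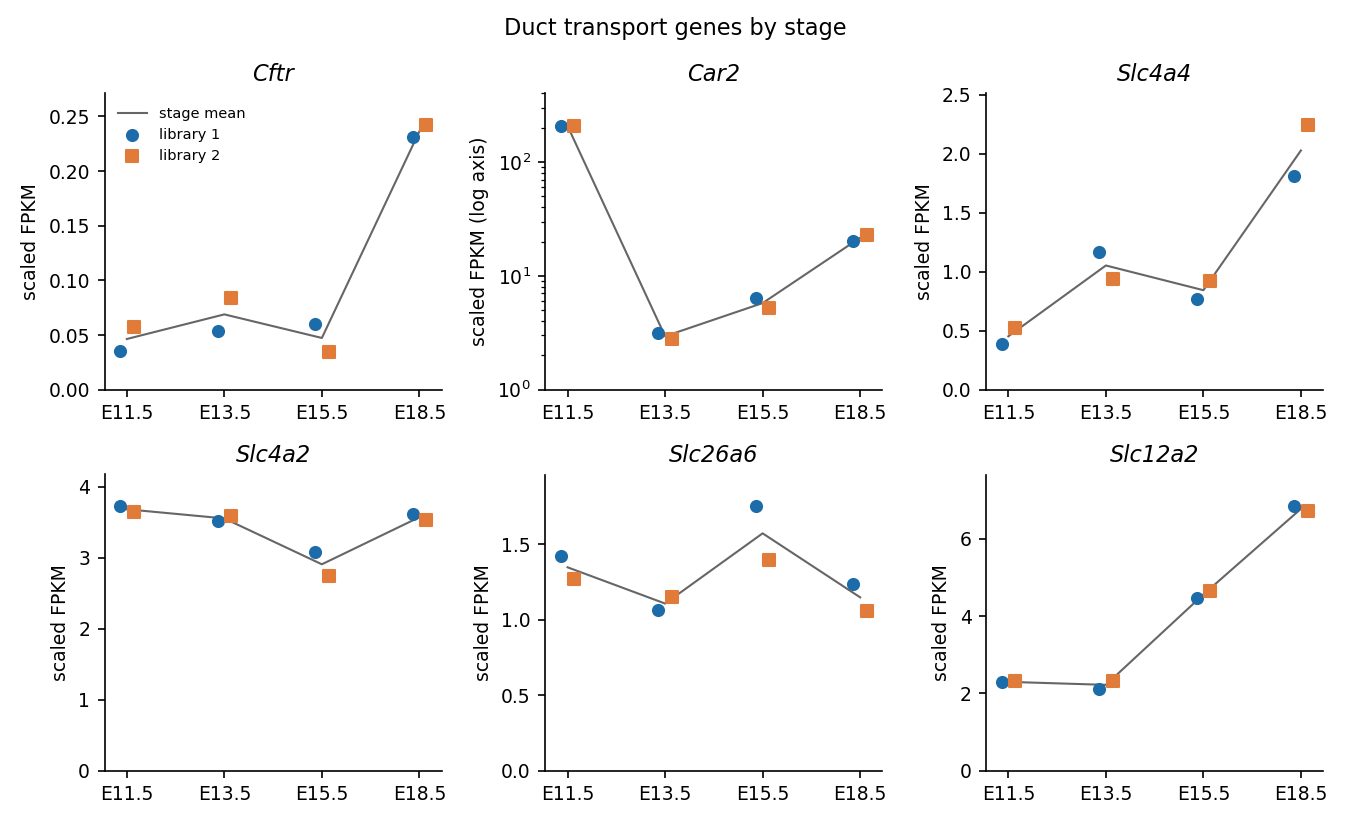
Level of each of the 6 genes by stage, in scaled FPKM (Car2 on a log axis, the others on linear axes from 0). Points are the 2 libraries recovered per stage and the line joins the stage means. Cftr, Slc4a4 and Slc12a2 have their highest points at E18.5, Car2 has them at E11.5, and the stage means of Slc4a2 and Slc26a6 lie within 2.91 to 3.68 and 1.11 to 1.57 FPKM.

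Across the span the genes did not follow 1 course. Between E13.5 and E18.5, Car2, Slc12a2, Slc4a4 and Cftr rose, while Slc4a2 and Slc26a6 did not pass the test. The largest of all their differences was the fall of Car2 at E13.5 against E11.5. Differences are given on the log2(FPKM + 1) scale, which understates those of low genes. They were tested with limma on the recovered libraries, with Benjamini-Hochberg adjustment over 28676 genes and a threshold of 0.05.

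At E18.5 against E13.5, 4 of the 6 genes rose by limma and 0 fell. Among all genes tested 18.9% rose and 12.0% fell. Among the 13801 of them at 1 FPKM or more at some stage 32.7% rose and 22.2% fell. That set leaves out Cftr, and of the other 5 genes 3 rose and 0 fell. A rule of size was used beside the test, a difference of 2-fold or over in which the larger value reached 5 FPKM. Of the 5 measured genes, 2 passed it upward and 0 downward, against 5.34% and 3.0% of all measured genes.

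At E18.5 against E15.5, 5 of the 6 rose and 0 fell, beside 20.6% and 15.6% of all genes tested. Without Cftr, 4 of the 5 measured genes rose and 0 fell, beside 35.6% and 27.8% of tested genes at 1 FPKM or more. By the rule of size 1 was higher and 0 lower, beside 6.29% and 5.55% of measured genes. At E15.5 against E13.5, 2 rose and 1 fell, beside 14.0% and 12.8% of all genes tested and 25.4% and 24.0% of those at 1 FPKM or more. None passed the rule of size there (0 of 5), which 3.64% of measured genes passed upward and 1.48% downward.

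At E13.5 against E11.5, 1 rose and 1 fell, beside 15.8% and 24.5% of all genes tested and 29.2% and 35.1% of those at 1 FPKM or more. By the rule of size 0 were higher and 1 lower, beside 5.77% and 5.73%. At E18.5 against E11.5, 3 rose and 1 fell, beside 20.8% and 25.0%. Without Cftr, 2 rose and 1 fell, beside 35.3% and 36.3% of those at 1 FPKM or more. Here 1 passed the rule of size in each direction, beside 10.4% higher and 7.55% lower. Counts of 1 to 3 of 6 genes are close to these shares, and nothing is read from them about the 6 genes as a group.

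The median difference of the 6 genes was 0.39 (log2) at E18.5 against E13.5 and 0.36 at E18.5 against E15.5, beside 0.06 and 0.04 over all measured genes. It was -0.04 at E13.5 against E11.5 and 0.13 at E15.5 against E13.5, beside -0.03 and 0.00. Cftr is not among the measured genes, and without it the 4 medians were 0.56, 0.48, -0.04 and 0.29 in the same order. Comparisons that share a stage share its libraries. Scaling each file to the same total, in which acinar genes alone held 105690 FPKM at E15.5, put the median of all measured genes at -0.41 for E15.5 against E13.5, and at -0.24 and 0.14 for E18.5 against E13.5 and against E15.5. The share of higher genes among those past the rule was then 12.2%, 28.9% and 66.4% in these comparisons, against 71.1%, 64.1% and 53.1% with the median-of-ratios scaling used here. With the same-total scaling 3 of the 6 genes rose and 1 fell by limma at E18.5 against E13.5, where Slc4a4 was no longer called and Slc4a2 fell. At E15.5 against E13.5 it gave 1 that rose and 2 that fell, and for E18.5 against E11.5 it gave 3 of each. For E13.5 against E11.5 and E18.5 against E11.5 the medians were -0.16 and -0.49 and the shares 40.0% and 25.9%, against shares of 50.2% and 58.0%.

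**Figure D2:**
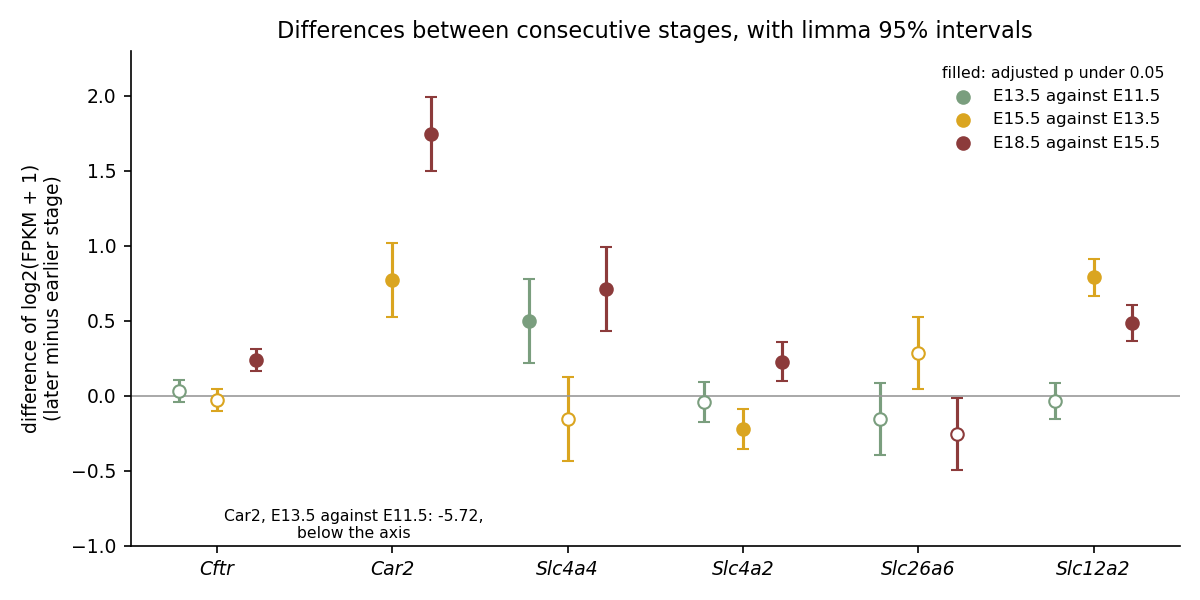
Difference of log2(FPKM + 1) between consecutive stages for each of the 6 genes, later minus earlier, with limma's 95% interval over 2 libraries per stage. Filled points passed an adjusted p of 0.05. Car2 at E13.5 against E11.5 (-5.72) lies below the axis, and Car2 and Slc12a2 have filled points above 0 at both later steps.

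Car2 encodes the cytosolic carbonic anhydrase II, which makes bicarbonate inside the duct cell and is also abundant in red blood cells. The gene (ENSMUSG00000027562, chr3:14886273-14900770, + strand) had library values of 209 and 205 FPKM at E11.5, 3.13 and 2.76 FPKM at E13.5, 6.35 and 5.18 FPKM at E15.5, and 20.4 and 22.8 FPKM at E18.5. No stage overlapped another, with the lowest values at E13.5. The reads behind them, summed over both libraries, were 18185, 258, 338 and 1341 in the order of the stages. Among measured genes its level stood at the 98.6th percentile at E11.5, then at 44.2, 58.3 and 81.3.

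At E13.5 Car2 was 70.3-fold lower than at E11.5 (2.95 ± 0.262 FPKM at E13.5, 207 ± 2.81 FPKM at E11.5, SD, n = 2 each; log2 difference -5.72, SE 0.10, limma adjusted p = 1.39e-06). From that low level it rose at both later steps. Against E13.5, E15.5 was higher by 0.77 (limma adjusted p = 0.00308), and with the same-total scaling this was 0.27 and no longer passed (adjusted p = 0.0912). The next difference was larger, 3.75-fold at E18.5 against E15.5 (log2 1.75, adjusted p = 8.73e-05). Set against E13.5 directly, E18.5 was 7.34-fold higher (21.6 ± 1.69 FPKM at E18.5, 2.95 ± 0.262 FPKM at E13.5; log2 2.52, adjusted p = 3.18e-05). E18.5 still lay below E11.5 (log2 -3.20, adjusted p = 4.71e-06).

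The E11.5 level of Car2 came with transcripts of other cell types. The embryonic globin genes Hbb-y and Hba-x were at 125 and 15.3 FPKM at E13.5, against 5197 and 1693 FPKM at E11.5. None of the 10 erythroid markers was under 1 FPKM at E11.5, and 3, 2 and 5 were at the later stages, with Hbb-y and Hba-x listed at 0 at E18.5. The otic list had 2 of 10 genes under 1 FPKM at E11.5 and 10, 10 and 9 later. Leukocyte genes summed to 89.6, 20.2, 194 and 119 FPKM over the 4 stages, of which C1qa made up 5.13, 13.3, 176 and 66.4 FPKM. Of the 8 leukocyte genes tested at 1 FPKM or more, 7 fell by limma at E13.5 against E11.5 and C1qa rose. Of all such tested genes 35.1% fell and 29.2% rose. Mesenchyme genes summed to 123, 4.50, 19.2 and 49.0 FPKM. The part of these cell types in the Car2 level was not tested. At E18.5 against E13.5, where Car2 was 7.34-fold higher, the mesenchyme sum was 10.9-fold, the acinar sum 8.38-fold, the endocrine sum 6.41-fold and the leukocyte sum 5.88-fold higher. The trunk and duct sum was 3.67-fold higher, and the neural, otic, erythroid and liver sums 1.96-fold, 1.63-fold, 1.52-fold and 1.34-fold higher, while the endothelial sum was 0.699 times its E13.5 level. Within the erythroid sum, genes ran in opposite directions. Of the 10 erythroid genes, 3 passed the rule of size upward and 2 downward, beside 5.34% and 3.0% of measured genes. Hba-a1, Hba-a2 and Hbb-bt were at 304, 31.1 and 13.9 FPKM at E18.5, against 78.0, 8.62 and 3.54 FPKM at E13.5. The 2 that fell were Hbb-y and Hba-x.

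**Figure D3:**
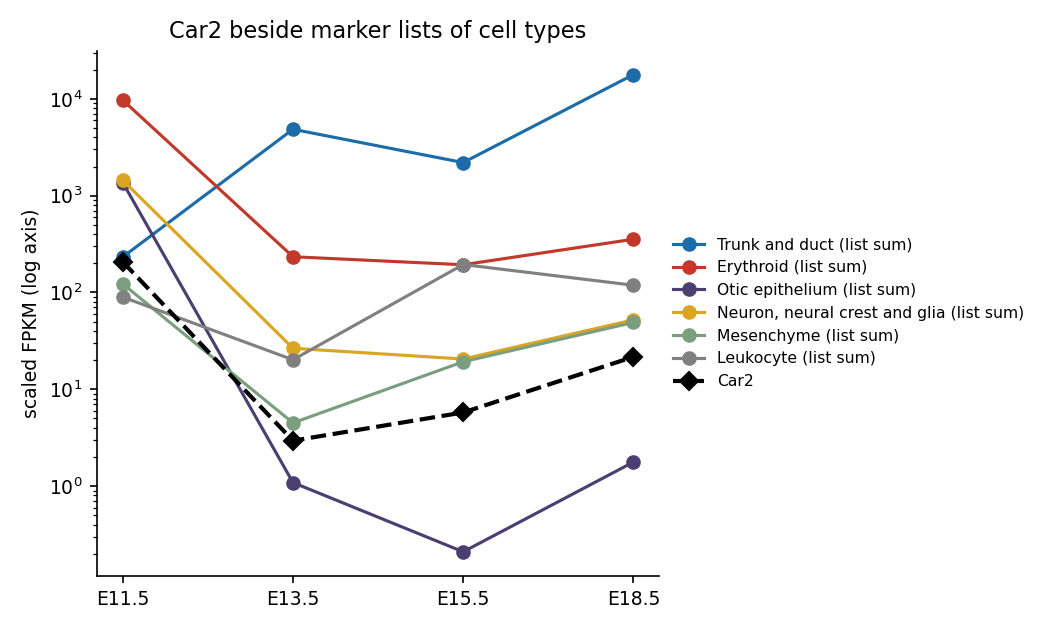
Car2 (dashed) and the summed levels of 6 marker lists at each stage, in scaled FPKM on a log axis, from the stage means. Erythroid, otic, neural and mesenchyme sums are highest at E11.5 together with Car2, while the trunk and duct sum is lowest there and highest at E18.5. Of the leukocyte sum of 194 FPKM at E15.5, C1qa alone makes up 176 FPKM.

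By shape over the 4 stages, the genes nearest to Car2 were Alb (65.4, 0.552, 2.38 and 5.15 FPKM), the plasma protein albumin, Alas2 (62.2, 1.06, 1.35 and 4.19 FPKM), the haem enzyme of red cell precursors, and Kif5c (34.9, 0.337, 0.200 and 2.44 FPKM), a kinesin of neurons. Their distances in centred log2 values were 0.66, 0.86 and 0.90, and 0 of the 7792 genes compared lay within 0.5. This likeness is a description over 4 stage means.

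Other carbonic anhydrases made up most of the family's total after E11.5. Of the summed FPKM of 16 carbonic anhydrase genes, Car2 made up 74.4% at E11.5, then 5.82%, 5.40% and 20.3%. Car9, a membrane carbonic anhydrase known as a hypoxia target, was at 0.899 ± 0.0997, 23.2 ± 1.91, 88.0 ± 4.16 and 63.4 ± 0.0418 FPKM. Car14, another membrane enzyme, ran the other way at 45.6, 16.1, 5.05 and 0.261 FPKM, and fell at every step. Car8, a related protein that lacks the enzyme activity, was at 0.446, 4.64, 5.18 and 14.0 FPKM.

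Beside Car2, the family list held 8 measured genes, of which 4 rose and 1 fell by limma at E18.5 against E13.5, beside 32.7% and 22.2% of the tested genes at 1 FPKM or more. Car9 (log2 1.41, limma adjusted p = 6.13e-05) and Car8 (1.41, 0.000265) passed the rule of size upward and Car14 (-3.76, 1.25e-06) passed it downward. At E13.5 against E11.5, 2 rose and 6 fell, beside 29.2% and 35.1%. Car3, a muscle enzyme, was among those past the rule there, at 0.145 FPKM at E13.5 against 6.12 FPKM at E11.5. Car13, a cytosolic relative of Car2 named after its values were seen, had its lowest level at E13.5 too (8.26, 0.598, 0.785 and 3.01 FPKM).

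**Figure D4:**
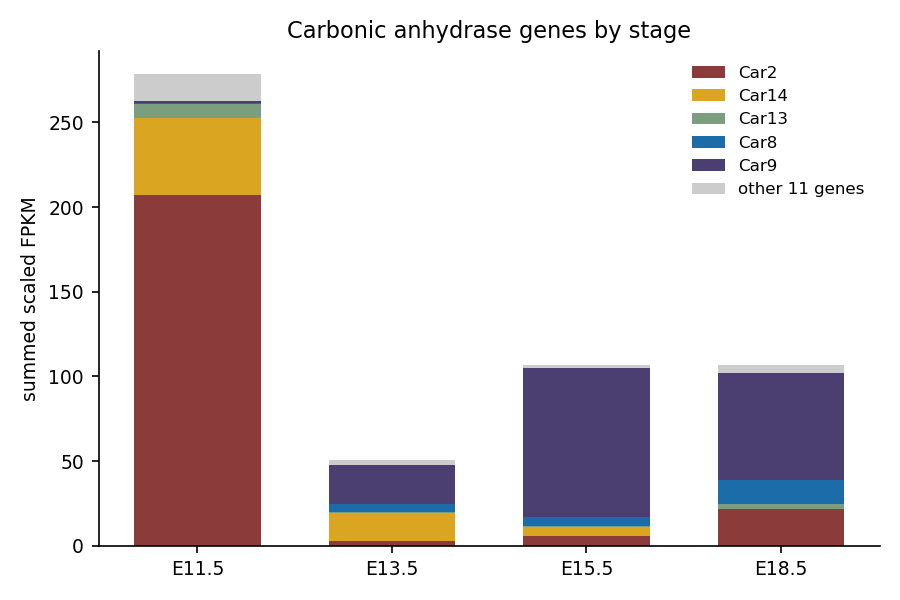
Summed scaled FPKM of 16 carbonic anhydrase genes at each stage, as stage means without error bars. Car2 makes up 74.4% of the bar at E11.5, and Car9 is the largest part at E13.5, E15.5 and E18.5.

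On the basolateral side, Slc12a2 encodes the sodium potassium chloride cotransporter NKCC1, which loads chloride into secreting epithelial cells. It rose at E15.5 and again at E18.5. Library values (ENSMUSG00000024597, chr18:57878678-57946821, + strand) were 2.28 and 2.31 FPKM at E11.5, 2.11 and 2.33 FPKM at E13.5, 4.46 and 4.66 FPKM at E15.5, and 6.85 and 6.71 FPKM at E18.5. The first 2 stages overlapped, and E15.5 and E18.5 each stood above all earlier libraries. E15.5 was 2.05-fold higher than E13.5 (4.56 ± 0.138 FPKM at E15.5, 2.22 ± 0.158 FPKM at E13.5; log2 0.79, SE 0.05, limma adjusted p = 0.000244). With the same-total scaling this difference was 0.31 (adjusted p = 0.00430). A further 1.49-fold followed at E18.5 against E15.5 (log2 0.48, adjusted p = 0.000730). E18.5 was 3.05-fold higher than E13.5 (6.78 ± 0.0962 FPKM at E18.5; log2 1.27, adjusted p = 2.78e-05).

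That difference passed the rule of size, but not with the same-total scaling, where it was 0.92, or with a pseudocount of 5, where it was 0.71. Nor did it pass with a 3-fold limit or a 10 FPKM minimum. The test was passed with every alternative run, over a log2 range of 0.92 to 1.57 at adjusted p values up to 0.000859. Its deposited values gave whole reads at an exon length of 6520, the length of its only protein-coding transcript in GENCODE M21, and not at the 10920 bases that include a retained-intron transcript. B3galt4 (3.99, 3.84, 7.12 and 9.93 FPKM), a galactosyltransferase, was nearest to it in shape, at a distance of 0.08. Tmem125 (2.97, 3.30, 5.61 and 8.65 FPKM), a membrane protein, and Csrp1 (18.1, 17.1, 35.0 and 45.2 FPKM), a LIM domain protein, followed at 0.13 and 0.15. Within 0.5 lay 131 of the 7792 genes compared, so many genes shared this course.

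Slc4a4 encodes NBCe1, the sodium bicarbonate cotransporter that brings bicarbonate into duct cells at the basolateral membrane. It was low at E11.5 and highest at E18.5. Its libraries (ENSMUSG00000060961, chr5:88886818-89239653, + strand) were at 0.383 and 0.522 FPKM at E11.5, 1.17 and 0.941 FPKM at E13.5, 0.768 and 0.920 FPKM at E15.5, and 1.82 and 2.24 FPKM at E18.5. Both E18.5 values exceeded all others, both E11.5 values were below all others, and the middle stages lay close together without overlap. E18.5 was 2.40-fold higher than E15.5 (2.03 ± 0.303 FPKM at E18.5, 0.844 ± 0.107 FPKM at E15.5; log2 0.71, limma adjusted p = 0.00448) and 1.93-fold higher than E13.5 (1.05 ± 0.159 FPKM at E13.5; log2 0.56, adjusted p = 0.0137).

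The E18.5 against E13.5 call of Slc4a4 was lost with the same-total scaling (0.30, limma adjusted p = 0.112), without E13.5 library 2 (adjusted p = 0.0786) and without E18.5 library 2 (0.0643). Its rise at E13.5 against E11.5 (log2 0.50, adjusted p = 0.0160) was lost without E11.5 library 1 (0.0905) or E13.5 library 1 (0.0876). E15.5 against E13.5 gave -0.15 (95% interval -0.43 to 0.13), and with the same-total scaling -0.45 (adjusted p = 0.0276).

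Slc4a2 encodes AE2, a basolateral exchanger of chloride for bicarbonate, and its stage means stayed within 2.91 to 3.68 FPKM. Its libraries (ENSMUSG00000028962, chr5:24423837-24440950, + strand) were at 3.72 and 3.64 FPKM at E11.5, 3.52 and 3.59 FPKM at E13.5, 3.08 and 2.74 FPKM at E15.5, and 3.61 and 3.53 FPKM at E18.5. E15.5 lay below the other stages, which were within 3.52 to 3.72 FPKM. The difference was -0.22 at E15.5 against E13.5 (limma adjusted p = 0.0292), a call lost in 6 of the 8 fits without 1 library, and with the same-total scaling it was -0.69 (adjusted p = 0.000180). It was 0.23 at E18.5 against E15.5 (adjusted p = 0.0203), lost without either E18.5 library (0.0588 and 0.0793) and with voom (0.0703), and 0.34 with the same-total scaling (0.00360).

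At E18.5 against E13.5 the Slc4a2 difference was 0.01 with a 95% interval of -0.13 to 0.14, while the same-total scaling gave -0.35 (limma adjusted p = 0.00337). Of its exon bases, 13.7% are shared with Fastk and Gm22333 on the opposite strand. No source used here says whether the libraries kept strand, so reads of these genes cannot be told apart there and the Slc4a2 values are uncertain.

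The SLC4 family list held 3 other measured genes, and none passed the rule of size at E18.5 against E13.5. Slc4a2 and Slc4a4 together made up 26.5% of the summed FPKM of the 10 SLC4 genes at E11.5 and 57.4%, 52.7% and 55.9% later. Slc4a1, the band 3 anion exchanger of red blood cells, was at 7.23 FPKM at E11.5 and at 0.233, 0.469 and 0.0319 FPKM later. Slc4a3, a further anion exchanger, was at 1.43, 1.49, 1.13 and 1.95 FPKM. Among SLC12 genes, Slc12a2 made up 19.2%, 27.2%, 45.4% and 38.7% of the summed FPKM of 9 genes. Of the 5 others measured, 2 rose and 0 fell by limma at E18.5 against E13.5, beside the 32.7% and 22.2% given above. One of these was Slc12a8, whose transport role is debated, at 0.0868, 0.167, 1.21 and 3.10 FPKM.

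At the luminal membrane, Cftr, the cAMP-gated chloride and bicarbonate channel, had the fewest reads of the 6 and its highest level at E18.5. The 2 libraries (ENSMUSG00000041301, chr6:18170687-18322768, + strand) held 5 and 8 reads at E11.5, 8 and 11 reads at E13.5, 6 and 3 reads at E15.5, and 23 and 24 reads at E18.5. In scaled FPKM these were 0.0351 and 0.0576, then 0.0539 and 0.0839, then 0.0600 and 0.0346, and last 0.231 and 0.242. The 3 earlier stages overlapped, and both E18.5 libraries stood above all of them.

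With 47 reads at E18.5 against 19 at E13.5, the ratio per unit of depth was 3.48 (exact 95% interval 2.002 to 6.27, counting error only). Against E15.5, with 9 reads, it was 4.90 (2.37 to 11.4), and against E11.5, with 13 reads, it was 5.11 (2.72 to 10.3). On the log2(FPKM + 1) scale the differences were 0.21, 0.24 and 0.24 (limma adjusted p = 0.00371, 0.00179 and 0.00118). Voom on the recovered reads gave log2 1.71, 2.15 and 2.28 (adjusted p = 0.00546, 0.00403 and 0.00101). In simulated libraries limma's false calls gathered among genes at levels this low, so its p-values for Cftr are less firm than for the other 5 genes. Of the Cftr exon bases, 1.66% are shared with Gm15592 on the opposite strand.

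Slc26a6 encodes PAT1, a luminal exchanger of chloride for bicarbonate. Its libraries (ENSMUSG00000023259, chr9:108853283-108913049, + strand) were at 1.42 and 1.27 FPKM at E11.5, 1.06 and 1.15 FPKM at E13.5, 1.75 and 1.39 FPKM at E15.5, and 1.24 and 1.06 FPKM at E18.5. E15.5 had the highest stage mean but overlapped E11.5, and E18.5 overlapped E13.5. No comparison passed the main test. At E15.5 against E13.5 the difference was 0.28 (limma adjusted p = 0.0897), and -0.07 with the same-total scaling. At E18.5 against E15.5 it was -0.26 (adjusted p = 0.0971).

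Both Slc26a6 differences passed with voom (adjusted p = 0.0382 and 0.0395) and when only genes at 1 FPKM or more were tested (0.0376 and 0.0440). At E18.5 against E13.5 it was 0.03, with a 95% interval of -0.21 to 0.27. Slc26a6 made up 18.4%, 17.8%, 22.0% and 12.0% of the summed FPKM of 11 SLC26 genes. Slc26a9, a luminal chloride transporter, was at 0.185, 0.271, 2.45 and 3.53 FPKM and rose at E18.5 against E13.5 (log2 1.83, limma adjusted p = 5.74e-05). Of the 4 SLC26 genes measured beside Slc26a6, Slc26a9 was the 1 that rose, 1 fell and 2 did not pass at that step. These shares are close to those of all tested genes at 1 FPKM or more.

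Within each stage the 6 genes could be ordered by FPKM, a level per exon length. At E11.5 the order was Car2, Slc4a2, Slc12a2, Slc26a6, Slc4a4 and Cftr, with no overlap between neighbours. At E13.5 Slc4a2 stood above Car2, followed by Slc12a2, and the values of Slc26a6 and Slc4a4 overlapped. At E15.5 and E18.5 Car2 led again, followed by Slc12a2 and Slc4a2. At E18.5 Slc4a4 stood above Slc26a6, 2.03 ± 0.303 against 1.15 ± 0.129 FPKM (SD, n = 2). Cftr was the lowest at all 4 stages, without overlap.

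The wider secretion machinery was read from 7 lists of 94 genes, of which 61 were measured. At E18.5 against E13.5, 8 passed the rule of size upward and 1 downward, beside 5.34% and 3.0% of measured genes. Of 59 tested, 28 rose and 6 fell by limma, beside 32.7% and 22.2% of the tested genes at 1 FPKM or more. Their median difference was 0.23, against 0.06 over all measured genes. At E18.5 against E15.5, 9 were higher and 1 lower by the rule, and 32 rose and 12 fell by limma, beside 35.6% and 27.8%.

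Sodium pump, sodium proton exchanger and potassium channel genes, which set the voltage and sodium gradient for secretion, had the largest median of the 7 lists at E18.5 against E13.5, 1.04. Of 12 measured, 5 passed the rule of size upward and 0 downward. Of 11 tested, 8 rose and 1 fell by limma, beside 32.7% and 22.2%. Kcnn4, a calcium-gated potassium channel, was at 2.41 ± 0.128, 0.203 ± 0.0562, 0.273 ± 0.0643 and 9.10 ± 0.466 FPKM. Its E18.5 libraries stood above all others (log2 3.07 against E13.5, limma adjusted p = 8.50e-06). Kcne3, a potassium channel subunit that pairs with Kcnq1, was at 0.496, 0.822, 0.0688 and 8.60 FPKM (log2 2.40, adjusted p = 1.98e-05). Kcnq1 itself was at 0.128, 4.06, 13.6 and 14.8 FPKM (log2 1.64, 3.82e-05).

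The sodium pump subunit Atp1b1 was at 10.8, 51.4, 33.3 and 126 FPKM and passed the rule of size, but had too many reads to be split and has no test. Kcnk5, a background potassium channel named after its values were seen, was at 1.54, 3.50, 2.52 and 13.9 FPKM. Acinar and endocrine marker sums were also higher, 49813 and 23526 FPKM at E18.5 against 5946 and 3671 FPKM at E13.5. The part of those cells was not tested.

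Of 12 other chloride channel genes measured, 1 passed the rule of size upward at E18.5 against E13.5, beside 5.34% of measured genes, and 4 rose and 1 fell by limma, beside 32.7% and 22.2%. These shares lie near those of all genes. The 1 past the rule was Ano1, the calcium-activated chloride channel of acinar and other secretory cells, at 1.63 ± 0.135, 0.770 ± 0.0106, 1.13 ± 0.105 and 5.08 ± 0.169 FPKM (log2 1.78, limma adjusted p = 2.74e-05). In FPKM it stood above Cftr at every stage. Clns1a, a chaperone of spliceosome assembly once taken for a chloride channel, had the highest level of the list at 75.7, 55.2, 41.7 and 35.6 FPKM. Clcn4, an endosomal exchanger, was at 10.5, 5.35, 3.93 and 9.84 FPKM.

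Among receptors and regulators of duct secretion, 0 of 17 measured passed the rule of size at E18.5 against E13.5, and 8 of 16 tested rose and 2 fell by limma, beside 32.7% and 22.2%. Sctr, the receptor for secretin, the hormone that drives duct bicarbonate secretion, was singled out after its values were seen. It was at 0.589 ± 0.0872, 0.0277 ± 0.00242, 0.0416 ± 0.00422 and 2.79 ± 0.649 FPKM (log2 1.88 at E18.5 against E13.5, adjusted p = 0.000191). P2ry2, a luminal receptor for ATP singled out likewise, was at 0.217, 0.137, 0.102 and 2.08 FPKM (1.44, 0.000122). The highest levels of the list were Ppp1ca, a protein phosphatase subunit (590, 987, 958 and 831 FPKM), and Slc9a3r1, the scaffold NHERF1 that binds the tail of CFTR (67.9, 98.2, 91.6 and 82.2 FPKM). Stk39, the kinase SPAK that acts on NKCC1, was at 32.6, 14.3, 20.2 and 15.9 FPKM.

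**Figure D5:**
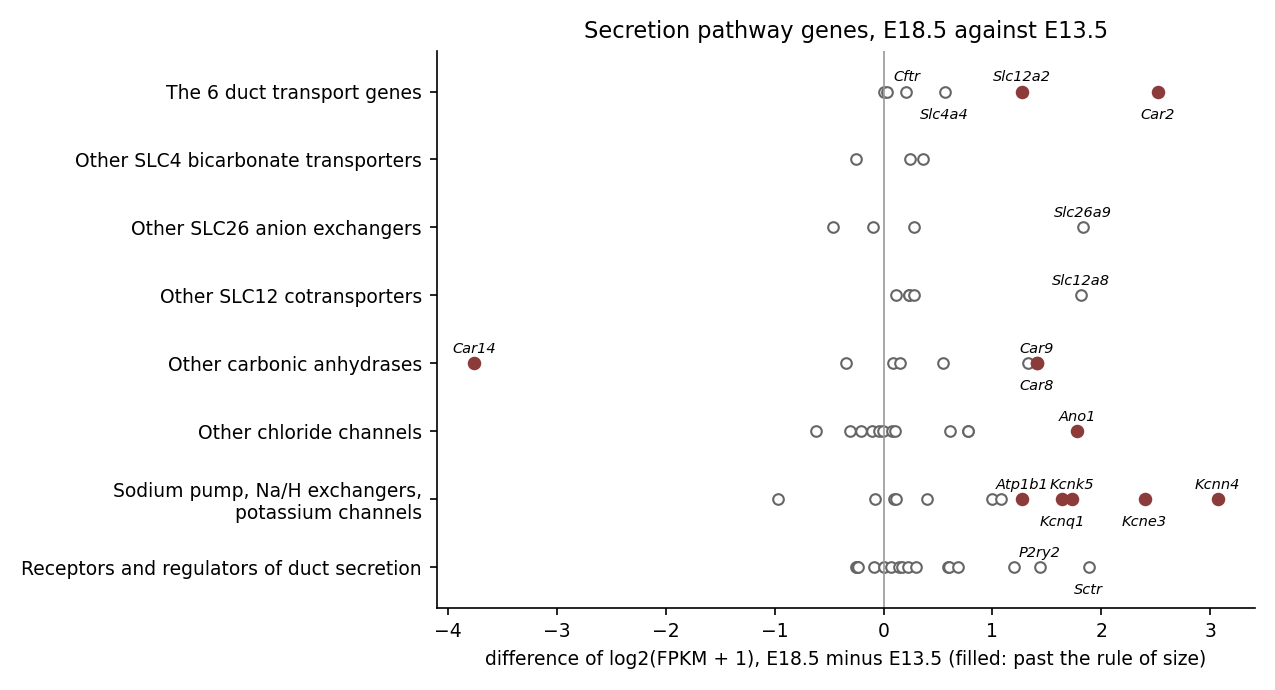
Difference of log2(FPKM + 1) at E18.5 minus E13.5 for the 6 genes and the measured genes of 7 secretion lists, from stage means. Filled points passed the rule of size, which 2 of the 6 genes and 9 of 61 other genes did, 8 of the 9 upward.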

How the data were processed

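The authors deposited 1 table per stage of FPKM values by Ensembl ID, called averages per the file headers. Per the submitters' processing notes, reads were handled with HISAT2 2.0.5 and mm10. No source used here gives the counting tool, the annotation or the strand setting. GENCODE M21, on the same build, gave symbols for 54495 IDs, exon lengths and coordinates.

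Stages were scaled by median-of-ratios factors from 9884 genes (0.989, 1.03, 1.03 and 0.962). FPKM times exon length was split into the whole reads of 2 libraries per stage, where 1 pair gave the printed mean within 0.75 of its last place. Of the genes above 0, 96.0% to 96.5% were split. For 741 of 797 genes with no pair, another length was fitted, Slc12a2 among them. Estimated depth was 1.36e+07 to 1.78e+07 reads a library. The spread within a stage was 1.31 to 1.47 times counting error. Read-ratio intervals are exact (95%) and cover counting error only. Genes that could not be split, very abundant ones among them, have no test.

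The library values of 28676 genes were tested with limma 3.58.1 (R 4.3.3) on log2(FPKM + 1), with a mean-variance trend. Voom on the recovered reads was added after the data were seen. The splitting and the test were tested on simulated data. Beside the 6 genes, those named were, per secretion list, up to 4 with the largest difference past the rule of size and up to 2 with the highest level, up to 2 per marker list, and the 3 nearest in shape to a gene past that rule. Exceptions are said. Of the genes so named, not all are described. The members and lists were chosen with earlier results of these data known. Promoter windows are RefSeq's (GRCm38.p6).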

Additional observations from a re-analysis of the deposited data

How the results depend on the processing

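No paired analysis was possible because the stages have 1 labelled sample each and the recovered libraries carry no number of their own. Of the 6 genes, the number past the rule of size was 2 for E18.5 against E13.5 and 2 for E18.5 against E11.5. Each became 1 with a pseudocount of 5, with the same-total scaling, with a 3-fold limit and with a 10 FPKM minimum, and the second became 3 with a 1 FPKM minimum. At E15.5 against E13.5 it was 0, and 1 with a 1.5-fold limit. In fits that left out 1 library at a time, the lone library of a stage is assumed to vary like the others. The number called by limma then moved in every comparison except E18.5 against E11.5. Over the member comparisons with 1 library left out, 227 kept their side of the threshold, 12 lost a call and 1 gained one. Over those with other settings, 134 kept it, 3 lost a call and 8 gained one, and no called difference changed sign. With the same-total scaling Slc4a2 and Slc26a6 fell at E18.5 against E11.5 (-0.50 and -0.47, adjusted p = 0.000388 and 0.00714). The secretion list genes past the rule of size numbered 10 at E13.5 against E11.5 (6 with a 3-fold limit, 18 with a 1 FPKM minimum) and 3 at E15.5 against E13.5 (1 with a 3-fold limit, 8 with the same-total scaling). They numbered 10 at E18.5 against E15.5 (5 with a pseudocount of 5), 9 at E18.5 against E13.5 (16 with a 1 FPKM minimum) and 16 at E18.5 against E11.5 (9 with a 10 FPKM minimum, 25 with 1 FPKM). The causes were not tested. Depth limits Cftr most, with 9 to 47 reads a stage.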
